A study of Mus musculus with 12 samples.

Results

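The NRF2 antioxidant and glutathione genes described here are 10 named mouse genes, Nqo1, Gclc, Gclm, Txnrd1, Srxn1, Hmox1, Gsta1, Gsta2, Gstm1 and Gstm3. They were chosen by symbol, as well-known targets of 1 transcription factor, with earlier results of these data known. Each symbol matched 1 Ensembl identifier. They are 10 of the 40551 genes in the count files, and all 10 passed the filter on low counts that left 15070 genes for testing.

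NRF2, encoded by Nfe2l2, is a transcription factor that KEAP1 and the CUL3 ubiquitin ligase keep at a low level in unstressed cells. When electrophiles or oxidants modify KEAP1, NRF2 persists, pairs with small MAF proteins and binds antioxidant response elements near genes that make glutathione, attach it to reactive compounds and reduce quinones and oxidized proteins. The liver, which handles most absorbed and endogenous toxic compounds, is a principal site of this program. BACH1 occupies similar elements and is best known as a repressor of Hmox1.

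Total RNA-seq of whole liver was deposited as read counts per gene for 12 livers, 3 of each of 4 genotypes. WT livers carried neither deletion. Mcl1Δhep livers (genotype label Mcl1 KO) came from floxed Mcl1 mice crossed to Alb-Cre, so that the survival gene Mcl1 is deleted in hepatocytes while the other liver cells keep it. Sting1-/- livers came from mice bred to lack the adaptor of cytosolic DNA sensing in all cells, and Mcl1Δhep Sting1-/- livers came from crossing both lines. No group received a treatment, and the labels give no age or sex. Nothing in the labels states that the 3 livers of a genotype were of separate litters or handled on separate days, so p-values measure the spread between these livers only.

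The libraries held 28826367 to 45266387 counts. Mcl1 itself was at 24.98 to 34.0 CPM (the count relative to the TMM-scaled library size) in Mcl1Δhep against 90.2 to 104 in WT, and at 18.1 to 26.0 in Mcl1Δhep Sting1-/- against 77.0 to 90.1 in Sting1-/-. Sting1 counts did not separate the libraries labelled Sting1-/- (1.16 to 2.70 CPM) from WT (2.11 to 2.53 CPM; log2 fold change -0.34 ± 0.30 SE, edgeR adjusted p = 0.998). In Mcl1Δhep Sting1-/- livers Sting1 was at 1.90 to 2.53 CPM against 3.67 to 5.997 CPM in Mcl1Δhep, without overlap (log2 difference -1.07 ± 0.29, edgeR adjusted p = 0.134, DESeq2 adjusted p = 0.0223), and it was higher in Mcl1Δhep than in WT (1.01 ± 0.29, edgeR adjusted p = 0.0324). The allele is not described in the sources used here, so a transcript that remains does not check the label, and the groups are called by their labels throughout. The summed hepatocyte markers, at 102600 to 166300 CPM, marked all 12 libraries as liver. Y-linked genes were counted in WT replicates 2 and 3 and in Mcl1Δhep Sting1-/- replicate 1, at a sum of 141 to 157 CPM, and were at 0.190 CPM or less in the other 9. By these counts those 3 livers were male, and no Mcl1Δhep or Sting1-/- liver was. In Mcl1Δhep against WT and in Sting1-/- against WT, genotype and sex therefore cannot be fully told apart. Genes for small structured RNAs took 0.314%, 2.77% and 1.55% of the counts in the 3 Mcl1Δhep libraries, against 0.192% to 0.980% in the other 9. Mcl1Δhep replicate 3 held 0.130% of its counts in skeletal muscle genes.

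The antioxidant response element is shown first because it is what links these genes in the textbook account. The core TGACNNNGC was searched on both strands in the 1000 bases before the annotated start of each gene's canonical transcript (GRCm39, GENCODE annotation). This motif and window were chosen after the expression values had been seen. Of the 10 genes, 3 held the core (30.0%), against 6137 of 21770 protein-coding genes (28.19%), so the share was near that of genes in general. The matching stretches are printed 5′ to 3′ on the strand of the gene, with each core, or its reverse complement GCNNNGTCA, in capitals and 16 bases on either side.
Gsta1: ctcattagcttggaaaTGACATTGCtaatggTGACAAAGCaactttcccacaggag
Gclm: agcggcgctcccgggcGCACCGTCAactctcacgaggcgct
Txnrd1 distal: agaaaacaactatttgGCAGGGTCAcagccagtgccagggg
Txnrd1 proximal: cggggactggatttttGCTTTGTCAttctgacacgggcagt

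The Gsta1 stretch lay at chr9:78137214-78137269 on the plus strand and held 2 cores in the same direction, beginning 697 and 682 bases before the start. The Gclm core began 54 bases before the start, within chr3:122039056-122039096. The Txnrd1 cores began 371 and 65 bases before the start, within chr10:82694626-82694666 and chr10:82694932-82694972. The same letters were not found in this window of Nqo1, Gclc, Srxn1, Hmox1, Gsta2, Gstm1 or Gstm3. Elements with other letters or outside this window were not searched for, so the result does not show that these genes lack the element. Of the 3 genes with a core, Gsta1 was higher in Mcl1Δhep than in WT, Gclm was lower, and Txnrd1 did not pass the test, as described below.

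The 10 genes spanned a wide range of abundance. On the per-length TPM scale (counts relative to annotated exon length, rescaled to the same total in each library), WT livers held a mean of 1332 ± 167 TPM of Gstm1 (SD, n = 3). Next came Gclc (116 ± 36.7), Gstm3 (101 ± 29.9), Gclm (85.9 ± 4.48), Txnrd1 (69.8 ± 5.90), Hmox1 (40.5 ± 11.4), Gsta2 (36.5 ± 11.8), Srxn1 (16.4 ± 1.41), Nqo1 (11.65 ± 6.61) and Gsta1 (2.38 ± 2.20). In this order the ranges of Gclc and Gstm3, of Gstm3 and Gclm, of Hmox1 and Gsta2, and of Srxn1 and Nqo1 overlapped, whereas the other neighbors did not. In Mcl1Δhep livers Gstm1 was still the most abundant of the 10, at 1453 ± 480 TPM, and was followed by Gstm3 (382 ± 222) and Hmox1 (179 ± 56.9). The 3 genes lowest in WT stood at similar levels there, with Nqo1 at 41.6 ± 2.57 TPM, Srxn1 at 39.7 ± 12.4 and Gsta1 at 32.8 ± 10.8.

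The main comparison asked how the genes differed after loss of MCL1 in hepatocytes. In Mcl1Δhep against WT, 6 of the 10 genes were higher (Hmox1, Nqo1, Gstm3, Gsta1, Srxn1 and Gsta2), 1 was lower (Gclm), and Gclc, Txnrd1 and Gstm1 did not pass the test (edgeR quasi-likelihood, Benjamini-Hochberg adjusted p under 0.05 over all tested genes). Over the whole transcriptome 10.8% of tested genes were higher and 9.43% lower by the same rule. The median log2 fold change of the 10 genes was 1.401, and that of all tested genes was -0.0049. Because the 10 genes were chosen with earlier results of these data known, setting them beside all genes is a description and not a test. The groups did not overlap for 7 of the 10 genes, against 33.3% of all tested genes. DESeq2 also called 7 of the 10, and 3846 of 16742 over all genes.

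**Figure D1:**
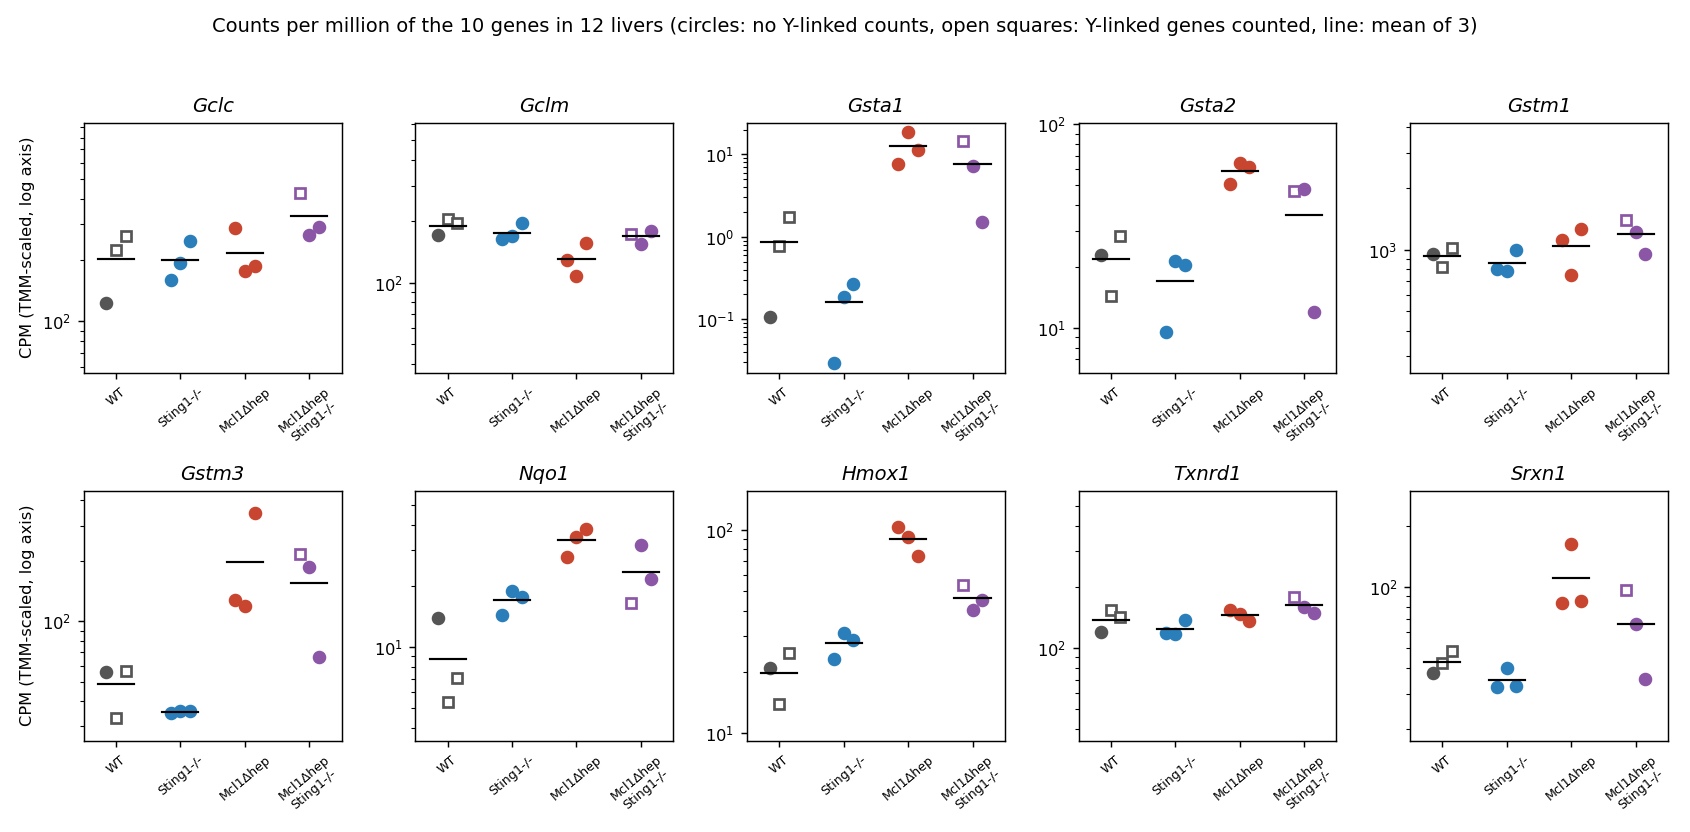
Each panel plots the CPM of 1 gene (TMM-scaled, logarithmic axis, its own range) in the 12 livers by genotype, with circles for libraries without Y-linked counts, open squares for the 3 libraries with them, and a line at the mean of 3. Hmox1 was at 73.9 CPM or more in each Mcl1Δhep liver and at 24.8 or less in each WT liver, while Gstm1 stayed between 752 and 1396 in all 12.

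Hmox1 (chr8:75820241-75827217, plus strand) encodes heme oxygenase 1, which breaks heme down to biliverdin, iron and carbon monoxide. Its counts were 103, 91.7 and 73.9 CPM in the 3 Mcl1Δhep livers and 20.8, 13.9 and 24.8 CPM in WT. The lowest Mcl1Δhep liver stood well above the highest WT liver. The log2 fold change was 2.18 ± 0.22 (SE), a 4.52-fold higher level, with an edgeR adjusted p of 0.000966. The call remained in all 19 other settings of the fit, with log2 fold changes from 1.97 to 2.37. Macrophages, which clear heme from red cells, also express Hmox1. The summed level of 12 macrophage and Kupffer cell markers was 1231 to 1453 CPM in Mcl1Δhep and 629 to 967 CPM in WT, 8 of the 12 were higher, and no listed marker was at 0. In whole liver, more cells of a type and more RNA per cell cannot be told apart, and the part of these markers in the Hmox1 result was not tested.

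Nqo1 (chr8:108113835-108129934, minus strand) encodes a quinone reductase that is widely used as a readout of NRF2. Mcl1Δhep livers were at 27.7, 34.9 and 38.04 CPM and WT livers at 13.9, 5.37 and 7.03 CPM. The groups did not overlap, and the highest WT liver was the 1 without Y-linked counts. The log2 fold change was 1.93 ± 0.33 (edgeR adjusted p = 0.00392), or 3.81-fold. With Y-linked expression as a covariate it was 1.42 and still called. With the share of small structured RNA as a covariate it was 1.78 with an adjusted p of 0.0523.

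Srxn1 (chr2:151947436-151957687, plus strand) encodes sulfiredoxin, which restores overoxidized peroxiredoxins. It was at 83.9, 163 and 85.4 CPM in Mcl1Δhep and at 37.96, 42.5 and 48.5 CPM in WT, so all 3 Mcl1Δhep livers were above WT and replicate 2 was the highest. The log2 fold change was 1.37 ± 0.33 (edgeR adjusted p = 0.0172). Without Mcl1Δhep replicate 2, which also held the largest share of small structured RNA, it was 0.98 with an adjusted p of 0.0781, and without WT replicate 2 the adjusted p was 0.0615. Txnrd1 (chr10:82669785-82733546, plus strand), the cytosolic thioredoxin reductase, was at 154, 147 and 136 CPM in Mcl1Δhep and at 119.5, 153 and 142 CPM in WT. These ranges overlapped, and the log2 difference was 0.08 with a 95% interval from -0.22 to 0.38.

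Gsta1 and Gsta2 encode alpha-class glutathione S-transferases, cytosolic enzymes that couple glutathione to electrophiles and reduce lipid peroxides. Gsta1 (chr9:78137927-78149966, plus strand) went from barely counted in WT, with 4, 26 and 52 reads, to 374, 612 and 355 reads in Mcl1Δhep. On the CPM scale that was 0.106, 0.771 and 1.72 in WT against 7.74, 18.7 and 11.2 in Mcl1Δhep. The groups did not overlap, and the log2 fold change was 3.89 ± 0.87 (edgeR adjusted p = 0.0121), the largest of the 10 genes and also the least precise. With Y-linked expression as a covariate it was 5.72 (adjusted p = 0.005), and with the share of small structured RNA as a covariate it was 2.99 and not called (0.117). It was not called without WT replicate 2 either (adjusted p = 0.0521). Gsta2 (chr9:78238292-78263077, minus strand) was at 51.0, 64.3 and 61.5 CPM in Mcl1Δhep and at 22.9, 14.3 and 28.2 CPM in WT, again with no overlap. Its log2 fold change was 1.44 ± 0.46 (edgeR adjusted p = 0.0454), a call that was kept in only 8 of 19 other settings of the fit. The settings that lost it included the Y-linked covariate and the small structured RNA covariate.

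These alpha-class values carry an uncertainty of read assignment. Of all 100-base stretches of the Gsta1 transcript, 80.81% also occurred in a transcript of another gene, mostly Gsta13, and for Gsta2 the share was 33.29%. How reads that fit several genes were counted is not given in the sources used here. When Gsta1, Gsta2, Gsta5 and Gsta13 were summed as 1 gene, an alternative chosen after the data were seen, the sum was 62.4, 92.3 and 77.2 CPM in Mcl1Δhep and 23.0, 15.2 and 30.6 CPM in WT. The sum was higher in every Mcl1Δhep liver, and its log2 fold change of 1.75 ± 0.50 passed the test (edgeR adjusted p = 0.0301).

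Gstm1 and Gstm3 encode mu-class glutathione S-transferases. Gstm3 (chr3:107871012-107881730, minus strand) was at 127.5, 119 and 345 CPM in Mcl1Δhep and at 55.98, 33.2 and 56.8 CPM in WT. Replicate 3 of Mcl1Δhep was far above the other two, and all 3 were above WT. The log2 fold change was 2.02 ± 0.47 (edgeR adjusted p = 0.0137), and without Mcl1Δhep replicate 3 it was 1.34 and still called. That library was also the 1 with skeletal muscle counts, whose part in its Gstm3 level was not tested. The call was lost without WT replicate 2 (adjusted p = 0.0609). Gstm1 (chr3:107919380-107925380, minus strand), the abundant liver enzyme of this class, was at 1121, 752 and 1260 CPM in Mcl1Δhep and at 953, 818 and 1025 CPM in WT. The ranges overlapped, and the log2 difference was 0.16 with a 95% interval from -0.30 to 0.63. Shared 100-base stretches made up 13.78% of Gstm3 and 7.18% of Gstm1.

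Glutamate-cysteine ligase, the rate-limiting enzyme of glutathione synthesis, is built from a catalytic subunit (Gclc) and a modifier subunit (Gclm). Neither was higher in Mcl1Δhep by the test. Gclc (chr9:77661797-77701770, plus strand) was at 286.5, 176 and 188 CPM in Mcl1Δhep and at 124, 225 and 263 CPM in WT. These spreads overlapped, and the log2 difference was 0.09 with a 95% interval from -0.56 to 0.75. With Y-linked expression as a covariate it was 0.69 (edgeR adjusted p = 0.127). Gclm (chr3:122039126-122065061, plus strand) was at 129, 107.5 and 157 CPM in Mcl1Δhep and at 171, 205.5 and 196 CPM in WT. Every Mcl1Δhep liver was below every WT liver, and the log2 fold change was -0.54 ± 0.16 (edgeR adjusted p = 0.0351). That call was kept in 12 of 19 other settings of the fit, and it was lost without Mcl1Δhep replicate 2 (adjusted p = 0.128), without WT replicate 2 (0.115) and without WT replicate 3 (0.0929). The Y-linked covariate (edgeR adjusted p = 0.162) and the small structured RNA covariate (0.281) lost it too. So did comparing only the 2 genotypes (0.141) and using no filter on low counts (0.057).

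**Figure D2:**
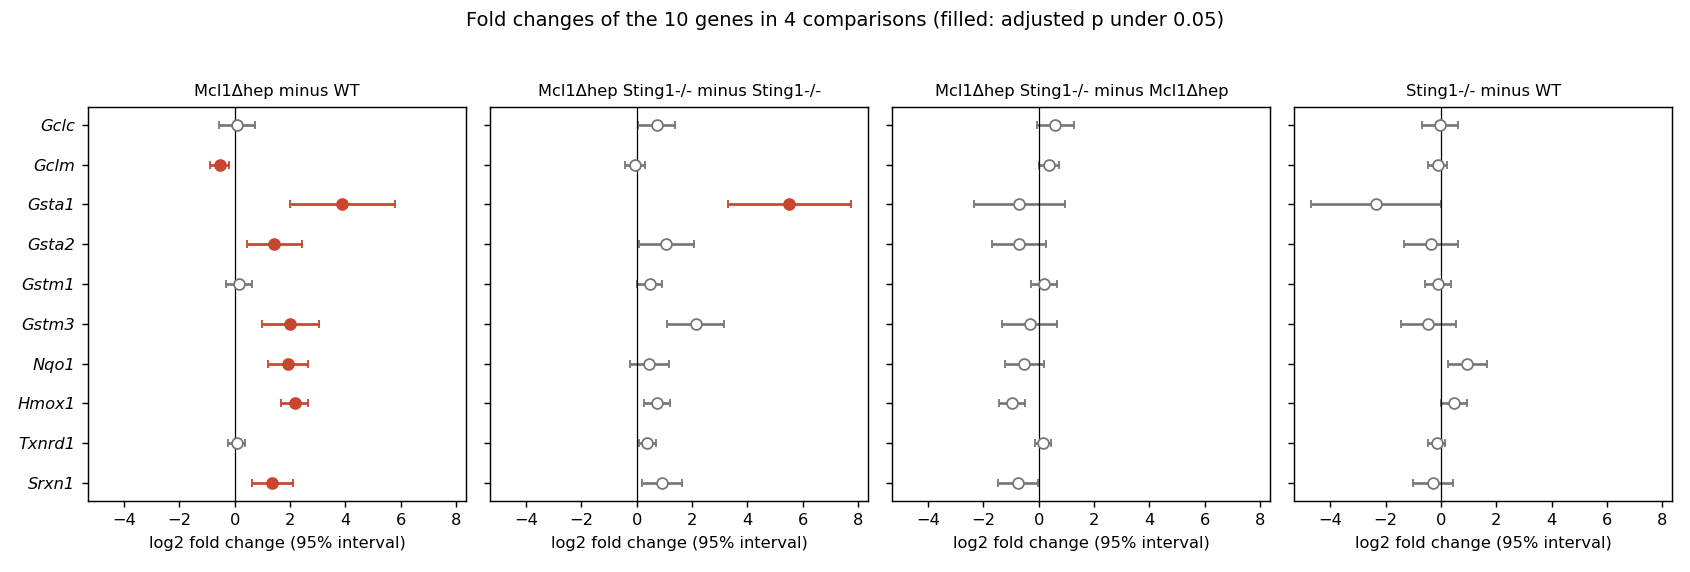
Log2 fold changes (horizontal axis) of the 10 genes (rows) in the 4 pairwise comparisons (panels), with 95% intervals from the edgeR fit and filled points for an adjusted p under 0.05. In Mcl1Δhep minus WT 7 points are filled, in Mcl1Δhep Sting1-/- minus Sting1-/- only Gsta1 is, and in the other 2 panels none is.

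The number of calls moved with the covariates and libraries used. With the share of small structured RNA as a covariate, only Hmox1 of the 10 genes was called in Mcl1Δhep against WT. Without WT replicate 2 the calls were 2 (Hmox1 and Nqo1), and without Mcl1Δhep replicate 2 they were 4 (Hmox1, Nqo1, Gsta1 and Gstm3). Calls over all genes fell in the same settings, from 3050 of 15070 in the reported fit to 485 of 15070 with the covariate, 1233 of 15427 without WT replicate 2 and 1238 of 15304 without Mcl1Δhep replicate 2. The 10 genes kept their signs in these 3 settings. Over all 19 settings only Gclc and Txnrd1 changed sign.

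**Figure D3:**
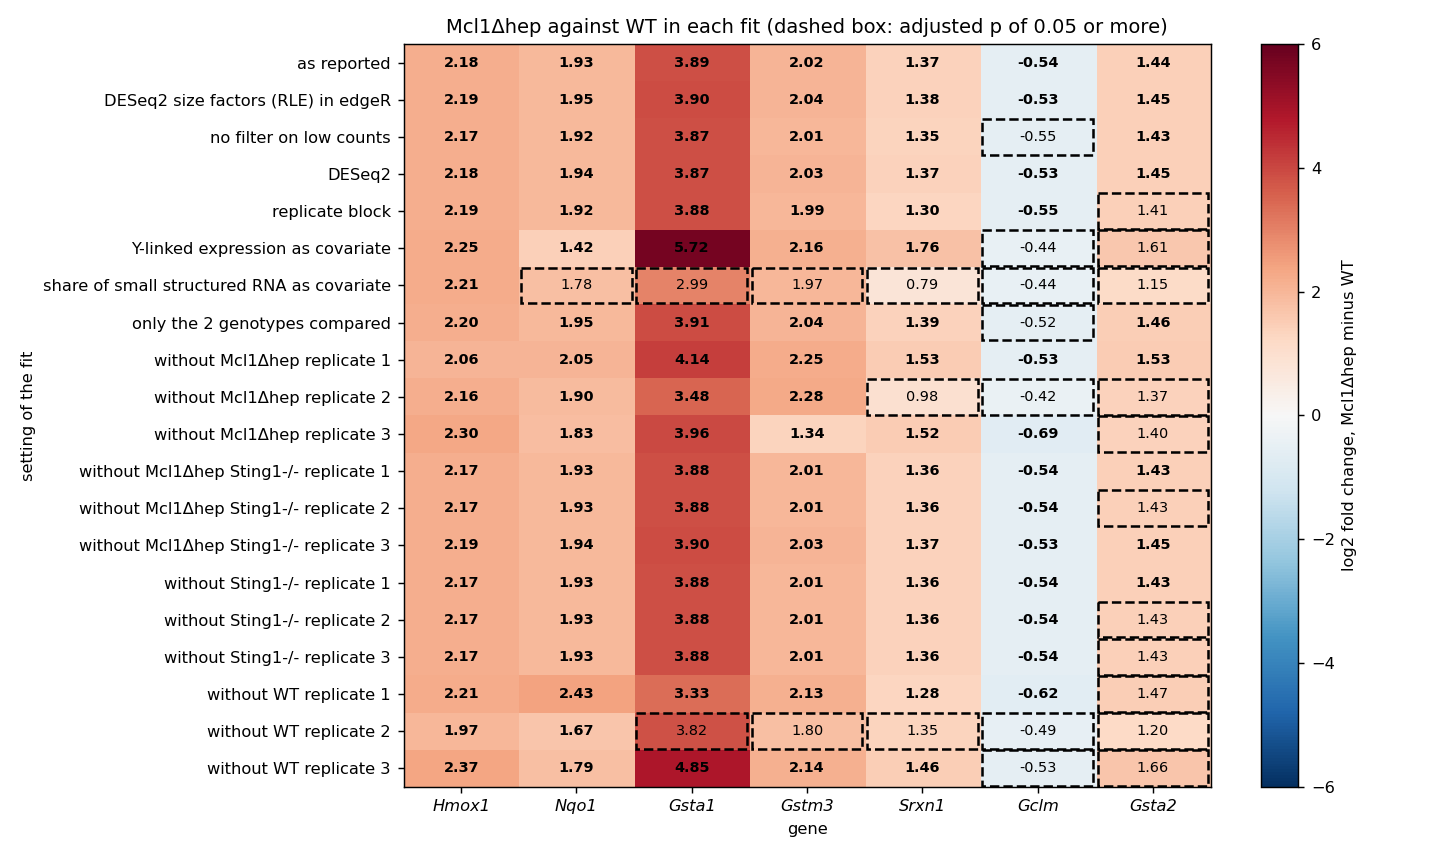
Log2 fold changes in Mcl1Δhep minus WT (colour and printed values) of the 7 called genes (columns) in the reported fit and 19 other settings (rows), with dashed boxes where the adjusted p was 0.05 or more. Hmox1 has no dashed box, Nqo1 has 1, and the row with small structured RNA as a covariate has 6.

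The same deletion was then read on the Sting1-/- background. Against Sting1-/- livers, Mcl1Δhep Sting1-/- livers had 1 of the 10 genes called higher (Gsta1) and none lower, where 0.677% of all tested genes were higher and 0.126% lower. Of the 10 genes 9 had a positive log2 fold change and 7 had an unadjusted p under 0.05, the median was 0.73 against -0.0089 over all tested genes, and DESeq2 called 3 (Gsta1, Gstm3 and Hmox1). Over all genes 1709 of 15070 had an unadjusted p under 0.05, and DESeq2 called 461 of 15791. The groups did not overlap for 5 of the 10 genes (Gclc, Txnrd1, Hmox1, Gsta1 and Gstm3, all higher), against 22.3% of all tested genes. The 2 Mcl1 comparisons use separate livers.

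Gsta1 was at 14.6, 7.14 and 1.53 CPM in Mcl1Δhep Sting1-/- and at 0.0291, 0.186 and 0.265 CPM in Sting1-/-, which stood for 436, 293 and 56 reads against 1, 7 and 11. Replicate 3 of Mcl1Δhep Sting1-/- was the lowest of its group and still above all Sting1-/- livers. The log2 fold change was 5.52 ± 1.02 (edgeR adjusted p = 0.0365). The call was lost when any 1 of the 3 Sting1-/- livers was left out (adjusted p from 0.155 to 0.21), without Mcl1Δhep Sting1-/- replicate 1 (0.117) or replicate 2 (0.0907), and without Mcl1Δhep replicate 2 (0.0538) or WT replicate 2 (0.0579), which enter through the shared spread. For the summed alpha-class genes the log2 fold change was 1.42 ± 0.49 (edgeR adjusted p = 0.268).

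Gstm3 followed with 216, 186 and 66.4 CPM against 34.8, 36.0 and 35.9 CPM. The Sting1-/- livers were nearly alike and all lay below the lowest Mcl1Δhep Sting1-/- liver, replicate 3. The log2 fold change of 2.13 ± 0.47 missed the threshold (edgeR adjusted p = 0.0673), and without Mcl1Δhep Sting1-/- replicate 3 it was 2.52 with an adjusted p of 0.0109. Without Mcl1Δhep replicate 3, whose Gstm3 stood apart, the adjusted p was 0.0283.

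Hmox1 was at 53.4, 40.2 and 44.9 CPM in Mcl1Δhep Sting1-/- and at 23.0, 30.9 and 28.7 CPM in Sting1-/-. The groups were apart, but the log2 fold change of 0.74 ± 0.21 was not called by edgeR (adjusted p = 0.16), and DESeq2 called it (adjusted p = 0.0351). The macrophage markers summed to 1084 to 1216 CPM against 790 to 1103 CPM in these groups, and none of the 12 passed edgeR's test (2 had an unadjusted p under 0.05, and DESeq2 called 1).

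Among the remaining genes, Gclc was at 429.5, 266 and 292 CPM in Mcl1Δhep Sting1-/- and at 159, 194 and 248 CPM in Sting1-/-, without overlap (log2 difference 0.72, 95% interval 0.06 to 1.37, edgeR adjusted p = 0.391). Txnrd1 was at 178, 159 and 149.6 CPM against 119, 118 and 137.5 CPM, also without overlap (log2 difference 0.38, 95% interval 0.07 to 0.68, edgeR adjusted p = 0.307). Neither difference passed the test. Srxn1, at 96.9, 65.7 and 35.5 CPM against 32.3, 39.9 and 32.5 CPM, overlapped through replicate 3 (log2 difference 0.92, edgeR adjusted p = 0.293). Gsta2 overlapped through the same liver, at 47.2, 47.96 and 11.9 CPM against 9.54, 21.4 and 20.2 CPM (log2 difference 1.06, edgeR adjusted p = 0.405). Without this liver Gsta2 was called, with a log2 fold change of 1.504 and an adjusted p of 0.0489. Gstm1 was at 1396, 1216 and 955 CPM against 801, 784 and 1002 CPM (log2 difference 0.46, 95% interval -0.0036 to 0.93).

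Nqo1 was at 16.5, 31.8 and 21.5 CPM in Mcl1Δhep Sting1-/- and at 14.4, 18.9 and 17.7 CPM in Sting1-/-. The ranges overlapped, and the log2 difference was 0.46 with a 95% interval from -0.24 to 1.15. The lowest Mcl1Δhep Sting1-/- liver was the 1 with Y-linked counts. Gclm was at 173, 154.5 and 180 CPM against 163, 169 and 196 CPM, with a log2 difference of -0.06 and a 95% interval from -0.41 to 0.29.

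Whether the effect of Mcl1 deletion itself differed between the 2 backgrounds was tested as an interaction. None of the 10 genes passed, as did 0% of all tested genes with edgeR. Of the 10 genes, 2 had an unadjusted p under 0.05 and DESeq2 called 1. Over all genes 2165 of 15070 had an unadjusted p under 0.05, and DESeq2 called 170 of 14853. For Hmox1 the log2 difference between the effects (Sting1-/- background minus intact) was -1.43 with a 95% interval from -2.09 to -0.77, at an unadjusted edgeR p of 0.000501 and an adjusted p of 0.216, and DESeq2 gave an adjusted p of 0.00303. For Nqo1 it was -1.48 with a 95% interval from -2.47 to -0.48 (unadjusted p = 0.00707, edgeR adjusted p = 0.277). Both effects were smaller on the Sting1-/- background in these livers, but edgeR called neither difference in the reported fit, and DESeq2 called only that of Hmox1. With Y-linked expression as a covariate the Nqo1 difference was -0.69 (adjusted p = 0.597) and that of Hmox1 was -1.55 (0.581). Across the other settings of the fit the adjusted p ran from 0.00303 to 0.878 for Hmox1 and from 0.0404 to 0.878 for Nqo1. The only edgeR settings that called them were leaving out Mcl1Δhep replicate 1 for Hmox1 (0.0275, with 1574 of 15357 genes called) and leaving out WT replicate 1 for Nqo1 (0.0404, with 88 of 15368 called). For the other 8 genes the adjusted p was 0.354 or more.

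Loss of Sting1 in Mcl1-deficient livers was read from Mcl1Δhep Sting1-/- against Mcl1Δhep, a comparison that shares its livers with those above. None of the 10 genes was called by edgeR, as 0% of all tested genes were, while 3 of the 10 had an unadjusted p under 0.05 and DESeq2 called 1. Over all genes 3098 of 15070 had an unadjusted p under 0.05, and DESeq2 called 663 of 14390. Hmox1 was the gene of the 10 that DESeq2 called, at 53.4, 40.2 and 44.9 CPM against 103, 91.7 and 73.9 CPM. The highest Mcl1Δhep Sting1-/- liver was below the lowest Mcl1Δhep liver, with a log2 difference of -0.96 and a 95% interval from -1.42 to -0.49 (edgeR adjusted p = 0.131, DESeq2 adjusted p = 0.00477). Without Mcl1Δhep replicate 1, which carried the highest Hmox1 level, edgeR gave an adjusted p of 0.0273 for a log2 difference of -0.84, in a fit that called 3108 of 15357 genes. The macrophage markers summed to 1084 to 1216 CPM against 1231 to 1453 CPM, so they were lower in the same livers, and their part in the Hmox1 difference was not tested.

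Gsta2 was the other gene whose groups did not overlap, at 47.2, 47.96 and 11.9 CPM against 51.0, 64.3 and 61.5 CPM (log2 difference -0.72, 95% interval -1.71 to 0.26). Non-overlap held for 2 of the 10 genes and for 18.2% of all tested genes. Srxn1 (log2 difference -0.75, 95% interval -1.47 to -0.03) and Gclm (0.37, 95% interval 0.02 to 0.71) had an unadjusted p under 0.05 and overlapping livers. The log2 differences of the other 6 genes ran from -0.70 (Gsta1) to 0.60 (Gclc), and all their 95% intervals included 0. The 10 genes had a median of -0.43, with 4 positive, and all tested genes had a median of -0.0021.

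In Sting1-/- against WT, the background comparison without Mcl1 deletion, none of the 10 genes was called by edgeR, where 0% of all tested genes were. Of the 10 genes 2 had an unadjusted p under 0.05, and DESeq2 called none. Over all genes 821 of 15070 had an unadjusted p under 0.05, and DESeq2 called 51 of 19595. Nqo1 was at 14.4, 18.9 and 17.7 CPM in Sting1-/- and at 13.9, 5.37 and 7.03 CPM in WT, without overlap (log2 difference 0.95, 95% interval 0.24 to 1.66, edgeR adjusted p = 0.807). The WT liver closest to Sting1-/- was again the 1 without Y-linked counts, as were all 3 Sting1-/- livers. With Y-linked expression as a covariate the log2 difference was 0.44.

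Non-overlap in this comparison held for 1 of the 10 genes and for 12.5% of all tested genes. Hmox1 had a log2 difference of 0.48 with a 95% interval from 0.01 to 0.94 (edgeR adjusted p = 0.909). Gsta1, at 0.0291 to 0.265 CPM in Sting1-/- against 0.106 to 1.72 CPM in WT, had a log2 difference of -2.33 with a 95% interval from -4.68 to 0.02. Both groups rested on few Gsta1 reads, 1 to 11 and 4 to 52 per library. For the other 7 genes the log2 differences ran from -0.45 (Gstm3) to -0.02 (Gclc).

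The regulators of NRF2 were looked at next to its targets. Nfe2l2 was at 85.3, 48.9 and 66.3 CPM in Mcl1Δhep and at 70.0, 41.8 and 55.6 CPM in WT, with a log2 difference of 0.26 and a 95% interval from -0.21 to 0.73. Keap1 was at 58.4, 52.5 and 55.6 CPM against 61.1, 53.2 and 57.0 CPM, with a log2 difference of -0.04 and a 95% interval from -0.27 to 0.19. Both ranges overlapped. NRF2 is regulated mainly at the protein level, which these counts do not measure. Of the 11 listed regulators 2 were lower in Mcl1Δhep and none higher, beside 9.43% lower and 10.8% higher of all tested genes. Bach1 fell by 1.16 on the log2 scale, from 62.6, 122 and 108 CPM in WT to 44.6, 34.5 and 52.1 CPM (edgeR adjusted p = 0.0111). Cul3 fell by 0.76, from 78.9, 80.8 and 70.7 CPM to 63.1, 36.1 and 37.3 CPM (adjusted p = 0.0194). Its low values in Mcl1Δhep replicates 2 and 3 came with 2.77% and 1.55% of counts in small structured RNA genes. Replicate 1, at 63.1 CPM, held 0.314%. The part of that share in the Cul3 result was not tested. For both Bach1 and Cul3 the Mcl1Δhep livers were below all WT livers. On the Sting1-/- background edgeR called neither, with log2 differences of 0.08 for Bach1 (adjusted p = 0.945) and -0.0017 for Cul3 (0.999). The 2 high WT values of Bach1 were those of the libraries with Y-linked counts, and the WT liver without them, at 62.6 CPM, lay within the 51.2 to 64.9 CPM of the Sting1-/- livers, which also lacked them. The part of this split in the Bach1 result was not tested.

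**Figure D4:**
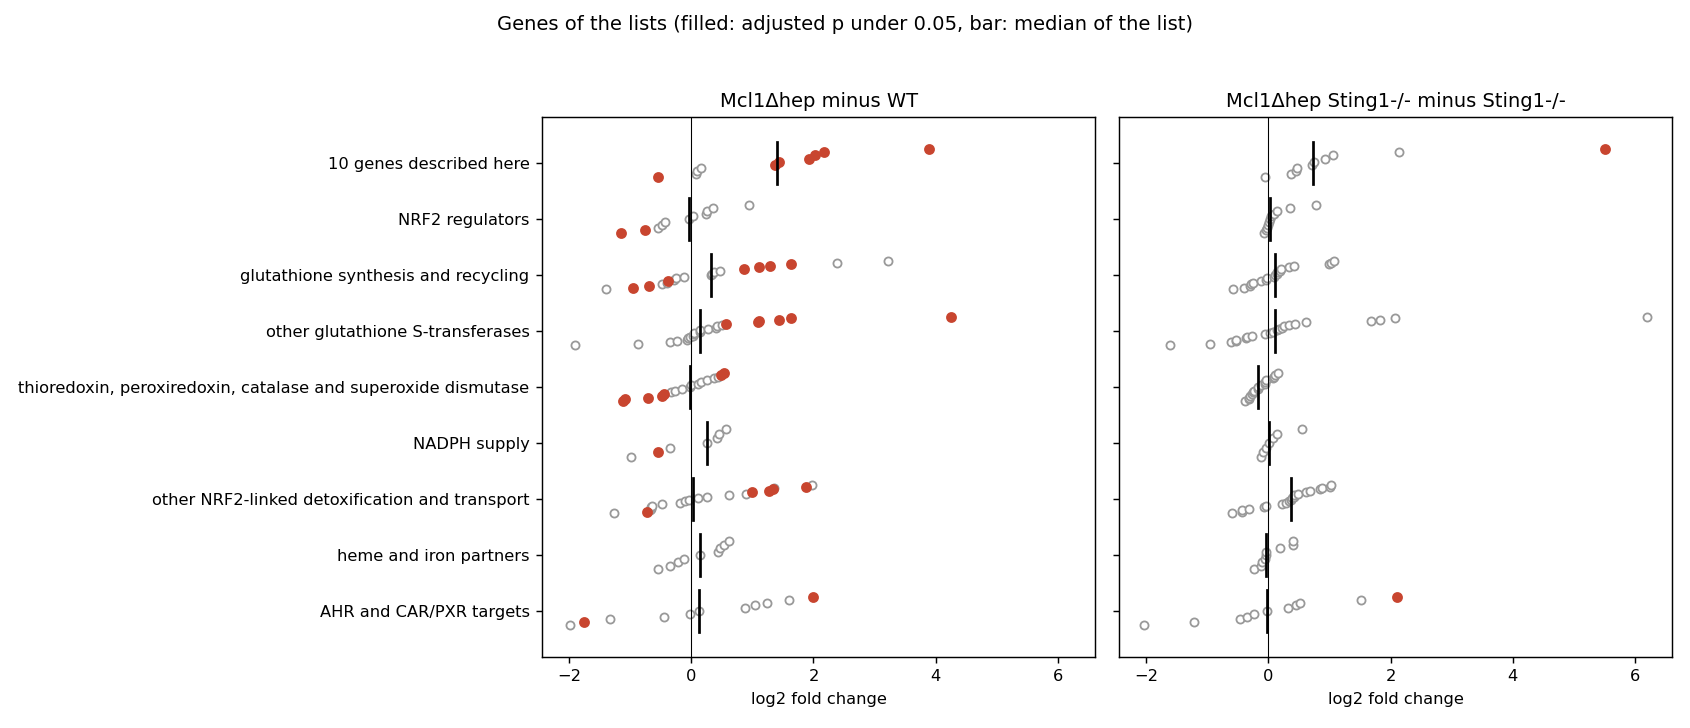
Log2 fold changes (horizontal axis) of the 10 genes and of the genes of 8 related lists (rows) in the 2 Mcl1 comparisons, with filled points for an adjusted p under 0.05 and a bar at each list's median. In Mcl1Δhep minus WT the bar of the 10 genes is at 1.401 and those of the lists lie between -0.0402 and 0.319.

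The wider glutathione system was mixed in Mcl1Δhep against WT. Of 19 tested genes of glutathione synthesis and recycling, 4 were higher and 3 lower, with a median log2 fold change of 0.32. Over all tested genes 10.8% were higher and 9.43% lower. Gss, glutathione synthetase, which completes the tripeptide, was at 109, 159 and 142 CPM against 53.7, 66.3 and 69.7 CPM (log2 fold change 1.11, edgeR adjusted p = 0.00418). Gpx7 (1.63, edgeR adjusted p = 0.0156) and Gpx3 (1.28, 0.0401), members of the glutathione peroxidase family, were also higher. So was Gpx4 (0.86, 0.0496), which reduces lipid hydroperoxides in membranes. The groups overlapped for Gpx3 and Gpx4. Glo1, the glutathione-dependent glyoxalase, fell by 0.96 on the log2 scale, from 207, 314 and 263 CPM to 138, 113.5 and 152 CPM. Oplah and Glrx2 were lower as well (log2 fold changes -0.70 and -0.39).

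Of 22 other tested glutathione S-transferases 6 were higher and none lower, with a median log2 fold change of 0.14. The shares of all tested genes were 10.8% higher and 9.43% lower. Of the 100-base stretches of Gsta1, 70.39% also occurred in Gsta13, so the read assignment of Gsta13 is uncertain too. Gsta13 went from 2, 7 and 20 reads in WT to 170, 299 and 139 (log2 fold change 4.25). Mgst3, a microsomal enzyme, rose from 25.1, 7.0 and 10.6 CPM to 29.1, 41.5 and 44.8 CPM (1.43, edgeR adjusted p = 0.0284). The WT liver at 25.1 CPM was the 1 without Y-linked counts. The Sting1-/- livers, which also lacked them, were at 21.3, 25.7 and 33.1 CPM. The part of this split in the Mgst3 result was not tested. Hpgds (1.64), the hematopoietic prostaglandin D synthase, Gstm2 (1.12), Gsta4 (1.09) and Gstm7 (0.56) made up the rest of the 6 higher genes. On the Sting1-/- background edgeR called none of the 22, 4 had an unadjusted p under 0.05, and DESeq2 called 2. Over all genes these numbers were 1709 of 15070 with an unadjusted p under 0.05 and 461 of 15791 called by DESeq2.

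Among genes of the thioredoxin system and of hydrogen peroxide and superoxide removal, taken as 1 list, more were called lower than higher. Of 17 tested thioredoxin, peroxiredoxin, catalase and superoxide dismutase genes, 5 were lower and 2 higher, with a median log2 fold change of -0.03. The shares of all tested genes were 9.43% lower and 10.8% higher. Cat, catalase of peroxisomes, was at 2121, 1267 and 1847 CPM in Mcl1Δhep and at 3408, 4081 and 3897 CPM in WT (log2 fold change -1.12, edgeR adjusted p = 0.00325), and all Mcl1Δhep livers were below WT. Txnrd3 (-1.09), Prdx6 (-0.72), Txnrd2 (-0.48) and Sod2 (-0.45) were lower too, whereas Sod3 (0.53) and Prdx4 (0.49) were higher. The mitochondrial Txnrd2 was thus called lower while its cytosolic relative Txnrd1 was not called. Of 7 genes of NADPH supply, which feeds both glutathione reductase and thioredoxin reductase, edgeR called Idh1 lower (-0.54) and none higher. The median log2 fold change of these 7 genes was 0.25, 6 had an unadjusted p under 0.05, and DESeq2 called 3. Over all genes 5558 of 15070 had an unadjusted p under 0.05, and DESeq2 called 3846 of 16742.

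Other genes of detoxification and transport linked to NRF2 were mixed, with 4 of 20 tested genes higher and 1 lower. Over all tested genes 10.8% were higher and 9.43% lower. Ptgr1, a prostaglandin reductase, was at 12.04, 14.4 and 17.1 CPM in Mcl1Δhep and at 4.27, 3.88 and 3.70 CPM in WT (log2 fold change 1.88, edgeR adjusted p = 0.000979). Akr1b8 (1.33), an aldo-keto reductase, Htatip2 (1.26) and the efflux transporter Abcc4 (0.9991) were higher, and the canalicular transporter Abcc2 was lower (-0.73). For Abcc4 the groups overlapped (edgeR adjusted p = 0.0427). The median of this list was 0.03. On the Sting1-/- background its median was 0.38, edgeR called none, 5 had an unadjusted p under 0.05 and DESeq2 called 2. Over all genes 1709 of 15070 had an unadjusted p under 0.05 there, and DESeq2 called 461 of 15791.

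Of the 9 partners of Hmox1 in heme and iron handling edgeR called none in Mcl1Δhep against WT, 4 had an unadjusted p under 0.05, and DESeq2 called 2. Over all genes 5558 of 15070 had an unadjusted p under 0.05, and DESeq2 called 3846 of 16742. Targets of other xenobiotic receptors (AHR, CAR and PXR) were examined because some respond to the same compounds. Of 11 tested genes 1 was higher and 1 lower, beside 10.8% higher and 9.43% lower of all tested genes. Cyp2c55 was at 13.5, 17.0 and 39.5 CPM in Mcl1Δhep against 7.28, 4.80 and 5.45 CPM in WT (log2 fold change 1.99, edgeR adjusted p = 0.00878). The gene was called again on the Sting1-/- background (2.10, adjusted p = 0.0451). Cyp1a2, a pericentral enzyme induced through AHR, fell by 1.77 on the log2 scale, from 879, 733 and 777 CPM to 122, 140 and 441 CPM.

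Several cell type lists moved in the same livers. In Mcl1Δhep against WT 4 of 4 tested neutrophil markers, 5 of 7 stellate cell and fibroblast markers and 5 of 5 proliferation markers were higher. Over all tested genes 10.8% were higher and 9.43% lower. Of 9 hepatocyte markers, 1 was lower and none higher by edgeR, with 4 at an unadjusted p under 0.05 and 3 called by DESeq2. The summed neutrophil markers were at 9.58 to 22.1 CPM against 2.85 to 4.66 CPM, the stellate cell markers at 579 to 598 CPM against 160 to 314 CPM, and the hepatocyte markers at 103300 to 143100 CPM against 102600 to 156300 CPM. Proliferation markers were at 41.0 to 133 CPM in Mcl1Δhep and 9.34 to 10.2 CPM in WT, and 4 of 5 were also higher in Mcl1Δhep Sting1-/- than in Sting1-/-. EdgeR called none of the cholangiocyte, endothelial and erythroid markers (1 of 6, 0 of 6 and 1 of 5 had an unadjusted p under 0.05, and DESeq2 called 0). The part of these cell types in the results for the 10 genes was not tested.

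Across the 12 livers, the genes whose log2 CPM was most like that of Nqo1 were Cisd3 (Pearson r = 0.964), Slc39a5 (0.946), Rcn2 (0.945), H2-Q1 (0.943) and Il1rn (0.943). For Gsta1 they were Mmp13 (0.965), Gsta13 (0.963), Tmem71 (0.963), Cfl1 (0.949) and Mmp12 (0.947). No other of the 10 genes appeared in either group of 5. These are descriptions over 12 libraries that share genotypes, depth and cell makeup, taken from 12558 genes.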

How the data were processed

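Total RNA from 12 mouse livers was sequenced (Illumina). The deposited values are raw read counts per gene that the authors made with STAR and featureCounts on GRCm39, per the labels and processing notes. Versions, strand setting and treatment of multi-mapping reads are not given in the sources used here. Groups and replicate numbers came from the labels, and 1018 of 40551 identifiers (at most 0.1011% of counts in a library) had no match in the annotation used here.

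The counts were tested with edgeR 4.0.16 (R 4.3.3): TMM scaling, filterByExpr, glmQLFit and glmQLFTest on genotype over all 12 libraries, Benjamini-Hochberg adjustment over 15070 genes, threshold 0.05. DESeq2 1.42.0, other scaling and filters, covariates, blocking on replicate number, and dropping each library in turn were alternatives. TPM used annotated exon lengths. Scripts were tested on simulated data, where edgeR recovered 171 of 198 changed genes with 6 false calls. DESeq2 recovered 176 of 200 with 30 false calls. Replicate numbers were not used to pair livers. The 10 genes and all lists were chosen with earlier results of these data known. All 10 are named, with at most 4 called genes per list of the largest change at a mean of at least 1 CPM, plus Nfe2l2, Keap1 and the 5 genes most like Nqo1 and Gsta1. Gpx4, Oplah, Glrx2, Gsta4, Gstm7, Txnrd2, Sod2, Prdx4 and Abcc2, which are outside this rule, were named after their values were seen.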

Additional observations from a re-analysis of the deposited data

How the results depend on the processing

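Of the called genes in Mcl1Δhep against WT, Hmox1 was called in 19 of 19 other settings, Nqo1 in 18, Gsta1 and Gstm3 in 17, Srxn1 in 16, Gclm in 12 and Gsta2 in 8. The number of the 10 genes called in that comparison was 1 with the share of small structured RNA as a covariate, and 2 to 7 when 1 library was left out. With Y-linked expression as a covariate it was 5, and Gclm and Gsta2 were the genes lost. In Mcl1Δhep Sting1-/- against Mcl1Δhep it was 1 with DESeq2 and 0 to 1 when 1 library was left out. In Mcl1Δhep Sting1-/- against Sting1-/- it was 2 with no filter on low counts, 3 with DESeq2, 0 with only the 2 genotypes compared, and 0 to 3 when 1 library was left out. For the difference between the Mcl1 effects it was 1 with DESeq2 and 0 to 1 when 1 library was left out. The cause of these shifts was not tested. Calls of genes in the related lists were not checked in these settings, apart from their number by DESeq2.

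Equal replicate numbers did not pair the livers (correlations of deviations from -0.541 to 0.251). With the replicate block the call of Gsta1 in Mcl1Δhep Sting1-/- against Sting1-/- was lost (0 of the 10 genes called, adjusted p = 0.0665), as was that of Gsta2 in Mcl1Δhep against WT (adjusted p = 0.0772).

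Signs changed only in differences that were not called. In Mcl1Δhep against WT the log2 difference of Gclc was 0.69 with the Y-linked covariate and ran from -0.17 to 0.31 when 1 library was left out, and that of Txnrd1 ran from -0.0197 to 0.15 when 1 library was left out. In Mcl1Δhep Sting1-/- against Mcl1Δhep, Gsta1 was at 0.0221 with the small structured RNA covariate, and leaving out 1 library gave -5e-04 to 0.35 for Gstm1 and -0.64 to 0.34 for Gstm3. In Sting1-/- against WT, Gclc was at 0.57 with the Y-linked covariate, at 0.0689 with the small structured RNA covariate and at -0.28 to 0.20 when 1 library was left out, while the Y-linked covariate put Txnrd1 at 0.0292 and Srxn1 at 0.10. Gclm in Mcl1Δhep Sting1-/- against Sting1-/- ran from -0.11 to 0.0253 when 1 library was left out. Scaling moved the median of all genes by at most 0.0136 (log2).

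Over all genes, the calls in Mcl1Δhep against WT numbered 3050 in the reported fit, 485 with the small structured RNA covariate, 1531 with the Y-linked covariate, 1178 with only the 2 genotypes compared and 1233 to 5232 when 1 library was left out. The calls between Mcl1Δhep Sting1-/- and Sting1-/- numbered 121, with 461 by DESeq2, 45 with the Y-linked covariate, 17 with only the 2 genotypes compared and 1 to 249 when 1 library was left out. Between Mcl1Δhep Sting1-/- and Mcl1Δhep edgeR called 0 (3098 at an unadjusted p under 0.05), DESeq2 called 663, and leaving out Mcl1Δhep replicate 1 gave 3108. In Sting1-/- against WT edgeR called 0 (821 unadjusted) and DESeq2 51, and leaving out WT replicate 1 gave 22. For the difference between the Mcl1 effects edgeR called 0 (2165 unadjusted) and DESeq2 170, and leaving out Mcl1Δhep replicate 1 gave 1574. The 3 livers per genotype and, for Gsta1, 1 to 52 reads per library in WT and Sting1-/- limit these comparisons.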

Other observations

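The core TGACNNNGC was also counted in the same 1000-base window of the related genes, as a description with no test. It was present in 6 of 11 NRF2 regulators (54.55%), 9 of 22 other glutathione S-transferases (40.91%), 6 of 19 genes of glutathione synthesis and recycling (31.58%), 7 of 20 other NRF2-linked genes (35.0%), 6 of 17 thioredoxin, peroxiredoxin, catalase and superoxide dismutase genes (35.29%), 4 of 9 heme and iron genes (44.44%), 3 of 11 targets of AHR, CAR and PXR (27.27%) and 0 of 7 genes of NADPH supply, beside 28.19% of all protein-coding genes.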
